A study of Mus musculus with 3 samples.

Results

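The Hox cluster genes were examined in single cells of 3 mouse rhabdoid tumours. The members were all gene-table entries whose symbol is Hox, a cluster letter from a to d and a number. This rule took 40 entries with 39 symbols out of 31053 genes, because Hoxd4 was listed under 2 gene identifiers. The HoxA cluster gave 11 symbols, HoxB 10, HoxC 9 and HoxD 9. This rule rests on symbols alone. The tumours (R26-SHH, all of genotype Rosa26-CreERT2::Smarcb1flox/flox) came from 3 mice and form a single group, so each tumour was 1 replicate and no untreated or Smarcb1-intact tissue was compared. In this model a tamoxifen-inducible Cre is driven from the ubiquitous Rosa26 locus. Tamoxifen in the early embryo therefore deletes both copies of Smarcb1, a core subunit of the SWI/SNF chromatin remodelling complex, in cells of no chosen type. The animals were of mixed background, and the study places such tumours in the basal ganglia and ventral subventricular region.

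Hox genes encode homeodomain transcription factors that lie in 4 clusters, and the genes at the same relative place in different clusters are called paralogues and share a number. Along the body axis of the embryo, low paralogue numbers are switched on in the hindbrain and neck and high numbers towards the lumbar, sacral and tail levels. The order of the genes on the chromosome follows the order of their domains. The forebrain and midbrain normally lie in front of all Hox domains and are marked instead by factors such as Otx2, needed for forebrain and midbrain formation, and En1, which patterns the midbrain-hindbrain boundary. In many cell types the silent clusters are covered by Polycomb marks, and SWI/SNF and Trithorax complexes oppose Polycomb.

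In the GRCm38 assembly (GENCODE M21) each cluster ran on 1 strand. HoxA lay at chr6:52155590-52260880 on the minus strand, HoxB at chr11:96194316-96368256, HoxC at chr15:102921103-103036852 and HoxD at chr2:74668310-74765142, these 3 on the plus strand. Of the 40 identifiers 39 were found in that annotation. Exons of 6 members shared bases with another gene on the same strand, among them Hoxc10 with Hoxc5 and Hoxd3 with Hoxd4, so the split of reads between these genes is uncertain. Exons of 9 members overlapped a gene on the opposite strand, among them Hoxb3, for which 52.9% of exonic bases lie opposite Hoxb3os.

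The 250 bases in front of the RefSeq start (GRCm38.p6) are shown for 4 members, which stand for the high and the near-silent ends of the levels given below. The first 3 belong to genes that were among the highest in at least 1 tumour or that differed between tumour states, and Hoxd1 was one of the 3 lowest members. Each sequence is written 5′ to 3′ on the strand of its gene, and capitals mark matches to TATAAA or CCAAT, searched on both strands, so that TTTATA and ATTGG are the reverse matches.
Hoxa10, second start, chr6:52234940-52235189, minus strand: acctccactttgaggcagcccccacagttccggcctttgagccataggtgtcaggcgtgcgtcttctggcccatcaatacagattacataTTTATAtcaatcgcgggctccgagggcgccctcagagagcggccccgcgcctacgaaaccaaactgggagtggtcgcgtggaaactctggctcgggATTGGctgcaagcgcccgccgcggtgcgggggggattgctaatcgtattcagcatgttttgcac
Hoxb8, chr11:96281655-96281904, plus strand: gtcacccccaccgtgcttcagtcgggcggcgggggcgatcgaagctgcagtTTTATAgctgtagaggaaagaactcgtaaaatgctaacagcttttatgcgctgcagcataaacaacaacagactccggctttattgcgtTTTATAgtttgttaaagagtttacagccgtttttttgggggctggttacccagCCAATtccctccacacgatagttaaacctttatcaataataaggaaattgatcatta
Hoxd10, chr2:74691641-74691890, plus strand: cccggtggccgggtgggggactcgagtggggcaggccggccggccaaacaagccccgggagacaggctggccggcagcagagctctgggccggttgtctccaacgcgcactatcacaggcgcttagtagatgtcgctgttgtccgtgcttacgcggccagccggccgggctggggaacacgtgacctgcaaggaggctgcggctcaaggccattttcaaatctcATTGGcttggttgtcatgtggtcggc
Hoxd1, chr2:74762730-74762979, plus strand: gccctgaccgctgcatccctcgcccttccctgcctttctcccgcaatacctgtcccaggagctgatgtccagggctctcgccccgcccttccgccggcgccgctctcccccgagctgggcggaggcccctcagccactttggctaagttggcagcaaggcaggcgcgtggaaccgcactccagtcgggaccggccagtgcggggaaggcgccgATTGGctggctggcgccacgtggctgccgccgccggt
RefSeq promoters were matched for 22 of the 39 symbols, with 24 starts. The Hoxb8 window held 12 CpG dinucleotides and the Hoxd1 window 24, against a median of 12.5 in the 24 Hox promoters and of 6 in all 32851 promoters of the same length. A CCAAT match was present in 14 of the 24 Hox promoters (58.3%) and in 33.8% of all promoters. For TATAAA the counts were 4 of 24 and 12.4% of all promoters. The letters TAATTA, which a homeodomain can bind, were found in 2 of the 24 and in 4.84% of all, the Hox and Pbx motif TGATTNAT in 2 of the 24 and in 2.82% of all, and CGCG in 13 of the 24 and in 33.8% of all. Matches to different motifs can share bases at their ends, and a match is a description of the window only.

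After removal of low-quality barcodes and predicted doublets, 8851, 7111 and 4854 cells were kept in tumours 1, 2 and 3, with median depths of 7133, 2369 and 8070 unique molecular identifiers (UMIs, 1 for each captured transcript end). The tumours shared 12 to 16 barcodes among kept cells for each pair. Cells were sorted into classes by marker genes that included no Hox gene, and 4115, 2627 and 1873 cells fell into the 5 tumour states, which were neural progenitor-like, neuronal-like, neural stem-like, mesenchymal-like and cycling. Levels are given as CPM, the UMIs of a gene for each 1000000 UMIs of the same cells. Smarcb1, the deleted gene, stood at 0.512 ± 0.068 CPM in the tumour states (SD, n = 3 tumours), against 18.5 to 28.0 in immune-like, 41.0 to 49.1 in endothelial-like and 70.3 to 83.6 in mural-like cells over the 3 tumours. The labelled deletion was thus seen in the cells placed in the tumour states, and in immune-like cells Smarcb1 was higher by 5.97 (SE 0.29) on the log2 scale (edgeR, adjusted p = 2.25e-15, higher in 3 of 3 tumours). Because the libraries capture transcript ends, a level does not grow with gene length, but capture efficiency can differ between genes.

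Hox transcripts were found in the tumour states of every tumour. Their sum over all members was 168 CPM in tumour 1 (7097 UMIs), 98.5 in tumour 2 (1954 UMIs) and 275 in tumour 3 (11294 UMIs), with a mean of 180 ± 88.9 (SD, n = 3). Tumour 3 was the highest and tumour 2 the lowest, and the exact 95% Poisson intervals, which cover counting error only, did not overlap. This order held in each of the 5 states. In neural progenitor-like cells the sums were 171, 116 and 301, in neural stem-like cells 195, 106 and 292, in neuronal-like cells 206, 70.6 and 252, in mesenchymal-like cells 150, 96.9 and 225, and in cycling cells 137, 86.9 and 266 for tumours 1, 2 and 3. The differences between tumours, which are single animals, have no replicate and no test.

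Immune-like, endothelial-like, mural-like and oligodendrocyte-lineage cells were lower than the tumour states of the same tumour. Immune-like cells held 14.4, 12.6 and 53.5 CPM of Hox genes, which is 8.61%, 12.8% and 19.5% of the level in the tumour states of the same tumour. Endothelial-like cells held 3.15, 11.2 and 7.62, from only 3, 5 and 9 UMIs. Mural-like cells held 29.7 and 61.3 in tumours 1 and 3, and none was seen in the 41 mural-like cells of tumour 2, which allows a level of up to 25.1. Oligodendrocyte-like cells of tumours 1 and 2 stood at 48.3 and 22.3, and oligodendrocyte precursor-like cells at 27.1 and at 0, where a count of 0 allows up to 16.6. The exception was cells that passed the astrocyte gate, at 186 CPM in tumour 1 (111 cells) and 202 in tumour 2 (137 cells). In tumour 2 this was above the tumour states (98.5), and in tumour 1 its Poisson interval of 154 to 223 included their level of 168. HoxB gave 125 and 193 of this, and in tumour 3 only 12 cells passed that gate.

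**Figure D1:**
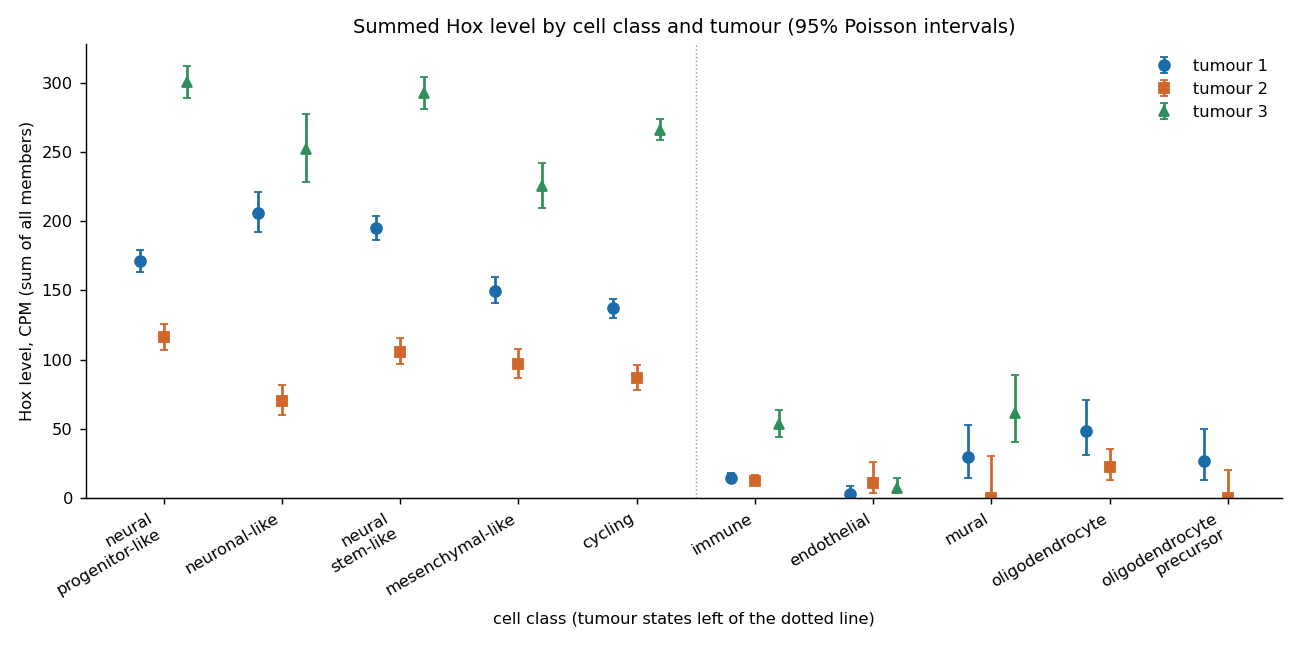
Summed level of the 40 Hox entries (vertical axis, CPM) in the tumour states and 5 other cell classes (horizontal axis), 1 symbol for each tumour with its 95% Poisson interval. The 5 tumour states lie between 70.6 and 301, and the 5 other classes shown between 0 and 61.3. Cells of the astrocyte gate, at 186 and 202, are not drawn.

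Transcripts set free from broken cells give every droplet a low background, so the immune-like level was set beside genes of the tumour cells. Sox2, a neural stem cell factor, En1 and Otx2 stood in immune-like cells at 7.51% to 14.2% of their level in the tumour states over the 3 tumours. Sox2 was itself a marker of the neural progenitor-like and neural stem-like gates. The sum of HoxA was at 5.24%, 7.77% and 12.6%. This was below all 3 genes of the same tumour in tumours 1 and 2 and among them in tumour 3. That of HoxB was at 10.6%, 13.7% and 16.1%. This was above all 3 genes of the same tumour in tumours 1 and 3 and among them in tumour 2. In tumour 3 the HoxC and HoxD sums were at 38.5% and 53.6%, above Sox2 (11.3%), En1 (11.6%) and Otx2 (13.5%) of the same cells. HoxC was also above these 3 genes in tumours 1 and 2, at 15.03% and 30.9%, from 7 and 1 UMIs, and HoxD was at 7.80% and 13.4% there, within their range. The values of tumour 3 rested on 28 HoxC UMIs in 9 cells and 24 HoxD UMIs in 9 cells. In all there were 277 immune-like cells, of which 47 held any Hox UMI. Whether they belong to immune cells was not tested.

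With every cell thinned to 2000 UMIs, 20.2% of tumour-state cells held a Hox UMI in tumour 1 (770 of 3820 cells, exact Clopper-Pearson interval 18.9% to 21.5%), 12.1% in tumour 2 (257 of 2122) and 31.8% in tumour 3 (563 of 1771). The mean was 21.4% ± 9.89 (SD, n = 3), and without thinning it was 44.0% ± 22.8. In immune-like cells the shares at 2000 UMIs were 3.77%, 2.27% and 8.28%, with a mean of 4.77% ± 3.13. Thinning left out 295, 505 and 102 tumour-state cells and 412, 208 and 120 immune-like cells, and the median depths before it were 9786, 7592 and 20279 UMIs in the tumour states and 8675, 6733 and 11320 in immune-like cells. Within each tumour the intervals of both classes lay apart. Among endothelial-like cells 1 of 108, 2 of 59 and 1 of 60 held a Hox UMI, and among mural-like cells 3 of 71, 0 of 24 and 3 of 32, where 0 of 24 allows a share of up to 12.5%.

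**Figure D2:**
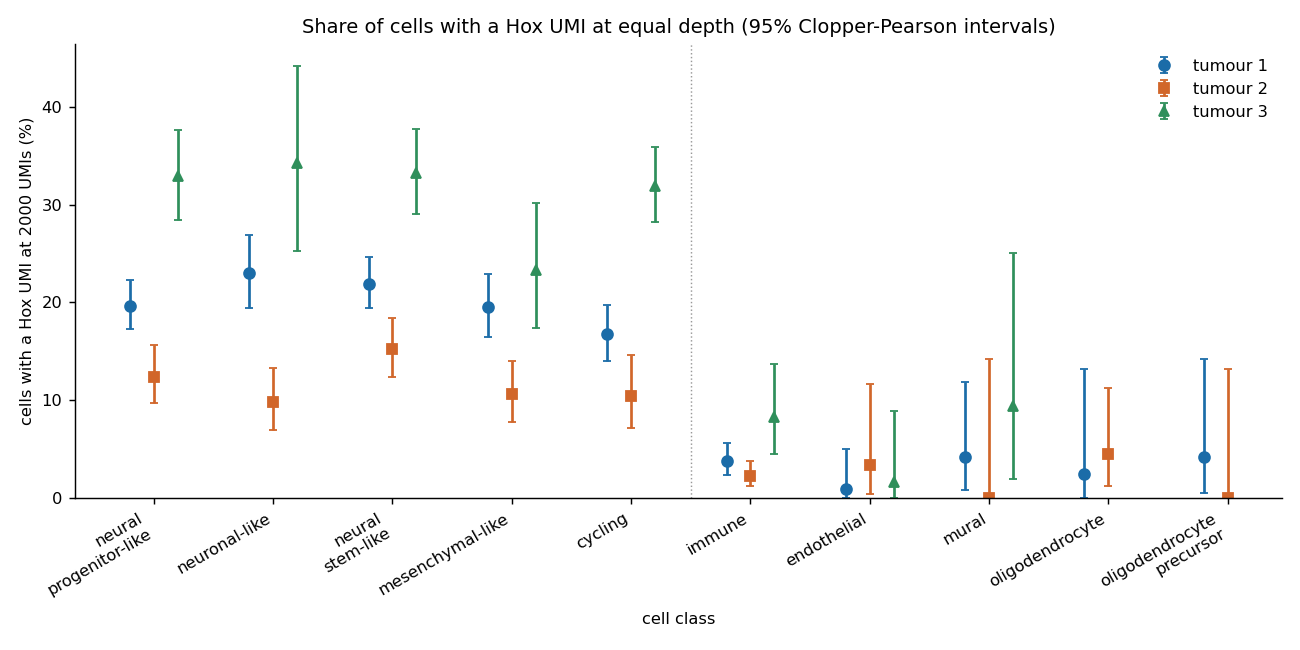
Share of cells with at least 1 Hox UMI after thinning to 2000 UMIs (vertical axis, percent) in the same cell classes (horizontal axis), 1 symbol for each tumour with its 95% Clopper-Pearson interval. Tumour-state shares run from 9.81% (neuronal-like, tumour 2) to 34.3% (neuronal-like, tumour 3), and the immune-like shares from 2.27% to 8.28%.

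The 4 clusters did not contribute alike. HoxB varied least between tumours relative to its level, with 64.0, 42.6 and 78.4 CPM in the tumour states of tumours 1, 2 and 3. HoxA gave 39.8, 15.03 and 145, so that it was under HoxB in tumours 1 and 2 and the highest cluster in tumour 3. HoxD went the other way, with 55.7, 40.2 and 19.5. HoxC was the lowest cluster in tumours 1 and 2, with 8.10 and 0.757, and stood at 31.6 in tumour 3. As shares of all Hox UMIs, HoxA held 23.7%, 15.3% and 52.9%, HoxB 38.2%, 43.2% and 28.5%, HoxC 4.83%, 0.768% and 11.5%, and HoxD 33.3%, 40.8% and 7.08%. By member, 10 of 11 HoxA, 8 of 10 HoxB and 9 of 9 HoxC entries were highest in tumour 3, whereas 1 of 10 HoxD entries was highest and 7 of 10 were lowest there.

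Paralogues 9 to 13 gave the largest part of the Hox UMIs in every tumour. They summed to 89.3, 43.6 and 161 CPM in tumours 1, 2 and 3, paralogues 5 to 8 to 52.2, 36.3 and 75.3, and paralogues 1 to 4 to 26.1, 18.6 and 38.3. These groups hold 16, 11 and 13 entries, and the sums are not corrected for that. The first group thus held 53.3%, 44.3% and 58.7% of Hox UMIs. The single highest paralogue number was 10 in tumours 1 and 3 (31.9 and 77.5) and 9 in tumour 2 (17.5, against 13.8 for number 10). At the posterior end of the clusters the levels were low. Number 12 gave 1.77, 0.0504 and 1.14 and number 13 gave 4.11, 0.908 and 8.52.

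**Figure D3:**
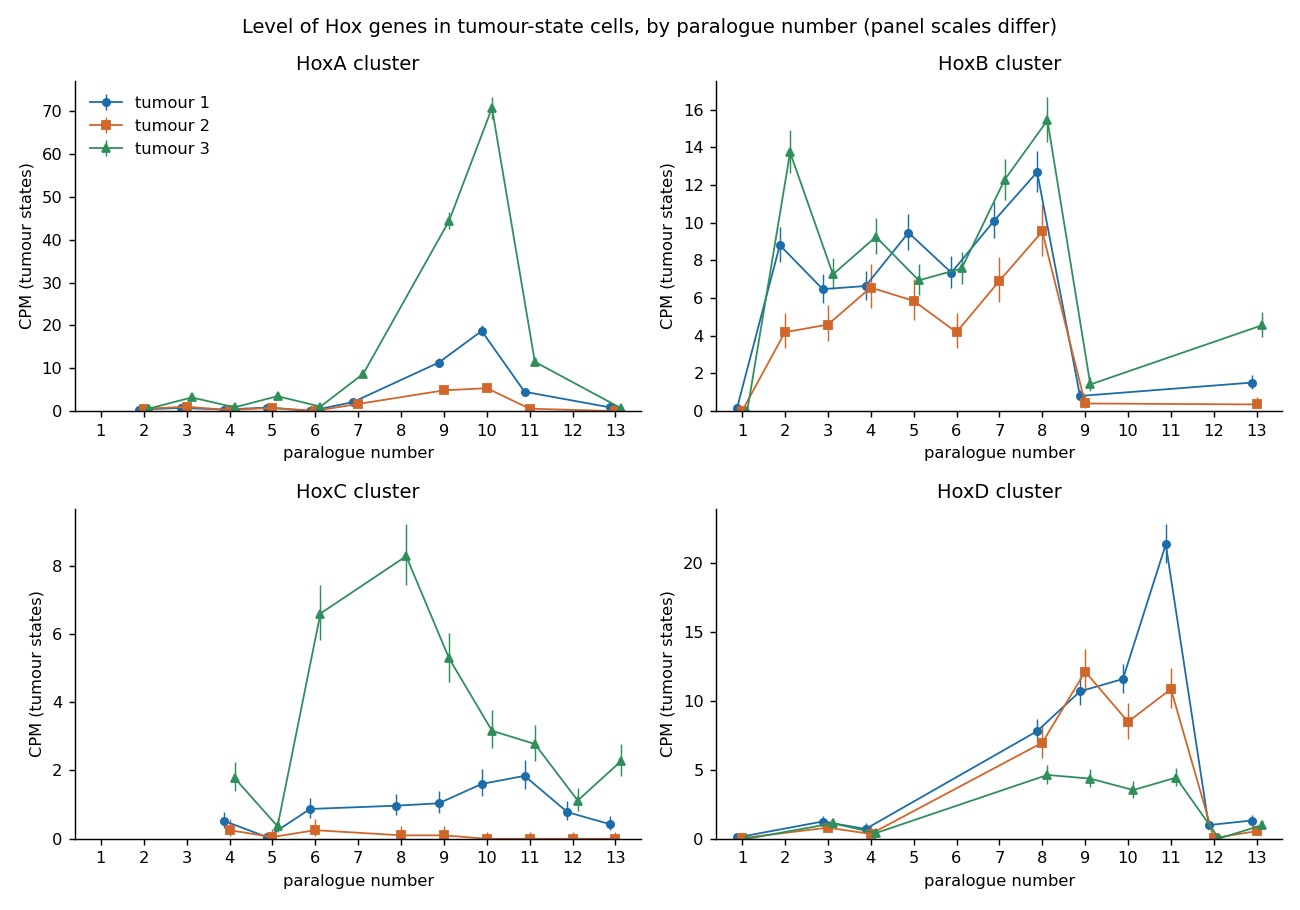
Level of Hox genes in the tumour states (vertical axis, CPM, scale differs between panels) against its paralogue number (horizontal axis), 1 panel for each cluster and 1 line for each tumour, with 95% Poisson intervals and the 2 Hoxd4 entries summed. HoxA peaks at number 10 (70.8 in tumour 3), HoxB at number 8 (15.4 in tumour 3), HoxC at number 8 in tumour 3 (8.28) and HoxD at number 11 in tumour 1 (21.3).

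The HoxA cluster was led by its posterior genes. Hoxa10, a regulator of lumbar and reproductive tract patterning, stood at 18.7, 5.35 and 70.8 CPM in the tumour states of tumours 1, 2 and 3, with 5, 2 and 19 UMIs in all immune-like cells. Hoxa9, known for axial patterning and for its part in blood stem cells and leukaemia, stood at 11.3, 4.84 and 44.4. Both were highest in tumour 3, which also had 41.0% of its tumour-state cells with a Hoxa10 UMI, against 8.43% and 2.44% in tumours 1 and 2, without correction for depth. Hoxa11, a limb and urogenital gene, stood at 4.51, 0.555 and 11.5. Hoxa7, a thoracic paralogue, stood at 2.10, 1.66 and 8.71, and neither of tumours 1 and 2 had a Hoxa7 UMI in immune-like cells. The more anterior Hoxa5, which acts in neck and lung development, was at 0.827, 0.757 and 3.48 and Hoxa3, which acts in the pharyngeal arches, at 0.732, 1.01 and 3.19.

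In HoxB a broad run of genes from number 2 to number 8 was present. Hoxb8, a thoracic paralogue, was its highest member with 12.7, 9.53 and 15.4. Hoxb7 stood at 10.1, 6.91 and 12.3, and Hoxb2, a hindbrain gene of rhombomeres 3 to 5, at 8.81, 4.19 and 13.7. For these 3 genes tumour 3 was highest and tumour 2 lowest, with a narrower spread than for Hoxa10. Hoxb4, Hoxb5, Hoxb6 and Hoxb3 lay between 4.19 and 9.47 in every tumour. For Hoxb5 tumour 1 was the highest, with 9.47 against 5.85 and 6.94. Hoxb13, the most posterior gene of the cluster and known from the tail bud and prostate, was at 1.51, 0.353 and 4.55. The number 9 gene Hoxb9 was low, at 0.803, 0.403 and 1.41, below Hoxb8 in every tumour and below Hoxb13 in tumours 1 and 3. Hoxb1, a rhombomere 4 gene, had 6 UMIs in the tumour states of tumour 1 and none in tumours 2 and 3, which allows up to 0.151 and 0.0730.

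HoxD UMIs came mostly from numbers 8 to 11. Hoxd11, a limb and sacral gene, stood at 21.3, 10.8 and 4.43, Hoxd9 at 10.7, 12.1 and 4.36, Hoxd10, which acts in lumbar motor neurons, at 11.6, 8.47 and 3.53, and Hoxd8 at 7.79, 6.96 and 4.63. All 4 were lowest in tumour 3, where HoxA was highest. The other HoxD members stayed at or below 1.32 in every tumour, and Hoxd1 had 4, 1 and 0 UMIs.

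HoxC had the widest spread between tumours relative to its level, with a mean of 13.5 ± 16.1 CPM (SD, n = 3), whereas in CPM the spread of HoxA was wider (66.8 ± 69.2). Hoxc8 stood at 0.968, 0.101 and 8.28, Hoxc6 at 0.874, 0.252 and 6.60, and Hoxc9 at 1.04, 0.101 and 5.28. In the spinal cord Hoxc6 is known for the forelimb level and Hoxc9 for the thoracic level. In tumour 2 these rested on 2, 5 and 2 UMIs, and 4 other HoxC genes, Hoxc10, Hoxc11, Hoxc12 and Hoxc13, were at 0, which allows up to 0.151 for each. Over all clusters 21, 15 and 29 of the 40 entries exceeded a level of 1 in tumours 1, 2 and 3, and 14 did so in all 3. Hoxa13 and Hoxb1 were also at 0 in tumour 2, as were Hoxb1 and Hoxd1 in tumour 3.

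To compare cell classes over tumours, UMIs were summed for each class and tumour and fitted with edgeR's quasi-likelihood test with the tumour as a block. Of the 40 entries 22 passed the filter on low counts, 6 of HoxA, 8 of HoxB, 4 of HoxC and 4 of HoxD, and the 18 others gave no test. In immune-like cells against the tumour states, 16 of 22 Hox genes were lower (adjusted p under 0.05) and none was higher. Over all 15148 genes tested 32.0% were lower. The members passed the filter mainly through the tumour states, where they are higher, so the count is a description. The median log2 difference was -2.27 for the tested Hox genes and -0.12 for all genes. Hoxb8 was lower by 3.53 on the log2 scale (difference -3.53, SE 0.52, adjusted p = 2.31e-06), Hoxa10 had a difference of -2.78 (SE 0.38, adjusted p = 5.6e-07) and Hoxd9 of -2.83 (SE 0.52, adjusted p = 4.06e-05), all lower in 3 of 3 tumours. The 6 that were not called were Hoxa3, Hoxa5, Hoxb4, Hoxc6, Hoxc8 and Hoxc10, with differences between -1.94 and -0.73. En1 and Otx2 fell in the same comparison by 2.69 and 2.53 on the log2 scale (edgeR, adjusted p = 2.97e-08 and 2.24e-12, lower in 3 of 3 tumours).

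Endothelial-like and mural-like cells held too few Hox UMIs for these counts to carry weight, 3, 5 and 9 in endothelial-like and 11, 0 and 27 in mural-like cells of tumours 1, 2 and 3. The members passed the filter on low counts through the tumour states, so that most were compared with a count at or near 0 and could only come out lower. Called lower were 21 of 22 in endothelial-like cells, where 30.1% of all genes were, and 7 of 22 in mural-like cells, where 19.4% were, and nothing is read from either count. Both counts moved with the setting. With DESeq2 13 genes were called in endothelial-like and 4 in mural-like cells, and without tumour 3, 12 and 1. The endothelial-like count without tumour 1 was 13, and the mural-like count without tumour 1 was 2.

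Of the tumour states, neuronal-like, neural stem-like and cycling cells differed from neural progenitor-like cells in at most 1 Hox gene. Against neural progenitor-like cells, neuronal-like cells differed in 1 of 22 members, Hoxa10 (log2 difference -0.94, SE 0.33, edgeR adjusted p = 0.0455), where 20.2% of all genes were called. That call was lost in 9 of 13 alternative settings, among them DESeq2 and leaving out tumour 2 or tumour 3. Neural stem-like cells differed in none (1 at an unadjusted p under 0.05, 0 by DESeq2), where 10.7% of genes were called. Cycling cells differed in none (0 at an unadjusted p under 0.05, 0 by DESeq2), where 11.6% were called, although 1 was called without tumour 3.

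Mesenchymal-like cells, which carry extracellular matrix genes beside neural ones, differed in 7 of 22. Lower were 5, against 6.36% of all genes lower, and 4 of these were HoxB genes. Hoxb7 stood at 14.05, 11.6 and 14.8 CPM in neural progenitor-like cells of tumours 1, 2 and 3 and at 5.30, 3.62 and 3.49 in mesenchymal-like cells. Hoxb8 stood at 14.2, 12.2 and 22.7 against 6.33, 8.63 and 4.36, and both genes were lower in every tumour with no overlap of the classes. Their log2 differences were -1.63 (SE 0.44, edgeR adjusted p = 0.0112) and -1.24 (SE 0.38, edgeR adjusted p = 0.0239). Hoxb5 (-1.64, edgeR adjusted p = 0.00924), Hoxb6 (-1.47, edgeR adjusted p = 0.0306) and Hoxa9 (-0.96, edgeR adjusted p = 0.0309) were the others, lower in 3 of 3 tumours.

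Higher in mesenchymal-like cells were 2 HoxD genes, against 13.0% of all genes higher. Hoxd8 stood at 5.45, 5.39 and 2.91 in neural progenitor-like and at 13.99, 12.3 and 6.69 in mesenchymal-like cells, and it was higher in 3 of 3 tumours (log2 difference 1.31, SE 0.40, edgeR adjusted p = 0.0248). Hoxd10 stood at 12.5, 5.81 and 1.63 against 11.05, 19.2 and 12.2, higher in 2 of 3 tumours (1.47, SE 0.52, edgeR adjusted p = 0.0467). The Hoxd10 call was lost in 10 of 13 alternative settings, with differences of 0.49 to 2.27, and each of the other 6 calls in 4 to 6 of 13. In tumour 3 the HoxC sum was also higher in mesenchymal-like cells, 81.1 against 23.3, which has no replicate, since it was 10.5 against 8.03 in tumour 1 and 0.557 against 0.415 in tumour 2. The count of 7 depended on single tumours, since 0 were called without tumour 1, 1 without tumour 2 and 4 without tumour 3, and 0 were called with classes taken from clusters of cells. Fibroblast markers moved with this comparison, 7 of 8 tested being higher in mesenchymal-like cells, as were 5 of 10 mural, 5 of 10 astrocyte, 3 of 6 oligodendrocyte precursor and 2 of 4 ependymal or choroid markers, and their part in the result was not tested.

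Within the tumour states the Hox genes were unevenly spread over cells. At an equal depth of 5000 UMIs, 33.1%, 22.9% and 51.0% of the cells of tumours 1, 2 and 3 held any Hox UMI. The 10% of cells with the most Hox UMIs held 61.3%, 73.5% and 45.0% of them, and the variance of the count per cell was 3.80, 3.65 and 3.03 times its mean. Of the cells with at least 2 Hox UMIs, 459 of 620 in tumour 1 (74.0%), 137 of 160 in tumour 2 (85.6%) and 314 of 528 in tumour 3 (59.5%) held UMIs of 1 cluster only.

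Genes of the same cluster were found together. For each pair of members the number of cells with both was divided by the number given by the product of their shares, and pairs for which that product gave under 1 cell were left out, so that the ratios cover the more abundant members only. In tumour 1 Hoxd10 and Hoxd11 were found together in 70 cells, where the product of the shares gives 7.93, a ratio of 8.82, and in tumour 2 the ratio was 8.22. Hoxb7 and Hoxb8 had ratios of 6.09, 11.6 and 5.39 in tumours 1, 2 and 3, and Hoxa9 and Hoxa10 of 6.51 in tumour 1 and 2.17 in tumour 3. Of the pairs within a cluster that passed, 33 of 33, 9 of 9 and 42 of 43 had a ratio above 1, with medians of 7.14, 5.24 and 4.04. The exception was Hoxa5 with Hoxa9 in tumour 3, with 3 cells. Pairs from different clusters had medians of 1.13, 0.914 and 1.16, and 42 of 72, 9 of 21 and 60 of 110 were above 1. When the product was taken within each state, a step added after the data were seen, the medians were 6.62, 5.33 and 3.76 within a cluster and 1.10, 1.00 and 1.15 between clusters. Pairs of 1 cluster share genes and cells and are not independent, so these ratios are a description.

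**Figure D4:**
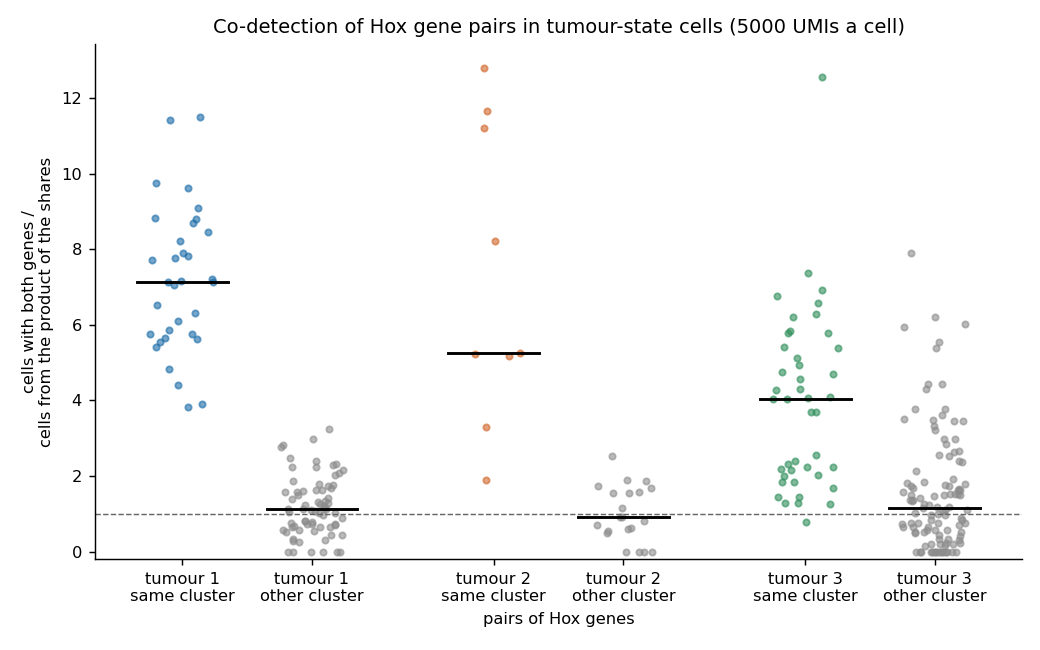
Ratio of the cells with both genes of a pair to the number from the product of their shares (vertical axis) for pairs of Hox genes of the same or of another cluster (horizontal axis) in the tumour states of each tumour at 5000 UMIs. Each point is a pair, bars are medians (7.14, 5.24 and 4.04 within a cluster, 1.13, 0.914 and 1.16 between clusters), and the dashed line is a ratio of 1.

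Between whole clusters the ratios ran from 0 to 6.18. HoxA and HoxB had 0.665 in tumour 1, 0.978 in tumour 2 and 1.26 in tumour 3. HoxB and HoxD had 1.33, 1.01 and 1.49. HoxA and HoxD had 0.905 in tumour 1, 0 in tumour 2 (0 cells, where the product gives 7.42) and 0.635 in tumour 3. HoxA and HoxC had 0.396 in tumour 3 but 1.82 in tumour 1. HoxC and HoxD had 6.18 in tumour 3 (41 cells against 6.63) and 2.10 in tumour 1. HoxB and HoxC had 1.90 in tumour 1 and 2.16 in tumour 3, so that HoxC was found with HoxB and HoxD beyond the product in both tumours that had enough HoxC cells. Unlike the pair ratios, the cluster ratios were not taken within states. In tumour 3 HoxC stood at 81.1 CPM in mesenchymal-like and 23.3 in neural progenitor-like cells, and HoxD at 45.1 and 14.3. The part of the states in the ratios was not tested.

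Tumour-state cells with a UMI of a cluster at 5000 UMIs were also compared with the cells without one, a comparison added after the data were seen. Only the split was made at 5000 UMIs. The summed counts tested were at full depth, so cells placed in the group without can hold UMIs of the cluster. The genes of that cluster differ by construction. Of Hox genes in the other clusters, 0 of 21 were called for HoxA (2 at an unadjusted p under 0.05 and 0 by DESeq2), 0 of 18 for HoxB (7 unadjusted, 2 by DESeq2) and 0 of 20 for HoxD (10 unadjusted, 1 by DESeq2). For HoxA 0 of 14372 genes outside the cluster were called, or 0%. At an unadjusted p under 0.05, 585 of these genes passed for HoxA, 747 of 14033 for HoxB and 763 of 13729 for HoxD. The HoxA genes themselves, which differ by construction, were not called either, so that nothing is read from the 0 for HoxA. Outside the cluster the count was 16 with DESeq2, 49 with no filter on low counts, 121 without tumour 1 and 5 without tumour 3. For HoxB 2 of 14033 were called (0.0143%), named here after their values were seen. Hes5, a Notch target of neural progenitors, was higher by 0.89 (SE 0.06) and Pmaip1, an apoptosis gene, by 1.30 (SE 0.11) on the log2 scale (edgeR adjusted p = 0.0249 and 0.0336, higher in 3 of 3 tumours). Both calls were lost without tumour 1, without tumour 2 and without the tumour block (0 genes called in each), and 422 genes outside the cluster were called without tumour 3, 119 with no filter and 53 with DESeq2. For HoxD 2 of 13729 were called (0.0146%), likewise named afterwards. Hoxd3os1, an antisense transcript inside the HoxD cluster, was higher by 3.05 (SE 0.24, edgeR adjusted p = 0.0422), and Ttr, a choroid plexus transport protein, had a difference of -4.66 (SE 0.16, edgeR adjusted p = 0.000629). Both were lost without tumour 1 and without the tumour block (0 genes outside the cluster called in each), and 1 of the 2 was lost without tumour 2 and with DESeq2. Outside the cluster 95 genes were called without tumour 3, 27 with DESeq2 and 15 with no filter.

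The anterior references were present at higher levels than any Hox gene. En1 stood at 336, 360 and 105 CPM in the tumour states of tumours 1, 2 and 3 and Otx2 at 213, 220 and 331. En1 was thus lowest in tumour 3, where the Hox sum was highest, and Otx2 was highest there. Both exceeded the highest single Hox gene of the same tumour, which was Hoxd11 with 21.3, Hoxd9 with 12.1 and Hoxa10 with 70.8.

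UMIs of En1 and Otx2 were found in the same cells as Hox UMIs, and no background was subtracted. At 2000 UMIs 3.77%, 2.27% and 8.28% of immune-like cells held a Hox UMI. For En1 these shares were 3.95%, 5.76% and 1.27% and for Otx2 3.60%, 5.58% and 8.28%. Of tumour-state cells with a Hox UMI at 5000 UMIs, 66.7%, 67.4% and 35.2% held an En1 UMI, against 65.0%, 68.7% and 32.2% of cells without one. For Otx2 the shares were 46.9%, 52.0% and 70.2% against 51.9%, 54.6% and 72.5%, lower in the Hox-positive cells in 3 of 3 tumours. The Clopper-Pearson intervals of the cells without a Hox UMI were 49.8% to 54.0%, 51.8% to 57.5% and 69.3% to 75.5%. In tumours 2 and 3 they included the Hox-positive share. For cells with a UMI of paralogues 9 to 13, En1 was found in 65.7%, 63.9% and 36.1%, against 65.5%, 69.1% and 32.2% of the other cells. Otx2 was found in 48.3%, 58.4% and 70.9% of them, against 50.7%, 53.4% and 71.6%, so that in tumour 2 it was higher in the cells with these paralogues. In the comparison of cells with and without a UMI of a cluster, neither En1 nor Otx2 was called for HoxB or HoxD (edgeR), in tests that called few genes of any kind. Otx2 had a log2 difference of -0.33 (SE 0.077, edgeR unadjusted p = 0.00468, adjusted p = 0.522) in cells with a HoxB UMI, lower in 3 of 3 tumours. En1 stood at 330 CPM in cells with 0 Hox UMIs and at 406 in cells with 5 or more in tumour 1, at 377 and 436 in tumour 2 (33 cells in the second group) and at 98.3 and 117 in tumour 3. The Otx2 values were 236 and 232, 229 and 139, and 354 and 260 for the same cells. Between these ends neither gene followed 1 course. En1 stood at 337, 351 and 98.4 with 1 Hox UMI and at 351, 335 and 116 with 2 to 4. In tumour 2 it thus fell before the last group, and its end intervals overlapped in tumours 2 and 3. Otx2 in tumour 1 stood at 184 with 1 Hox UMI and at 191 with 2 to 4, below both ends, and in tumour 3 at 374 and 318. Sox2 was also higher with 5 or more Hox UMIs than with 0, at 466 against 372, 618 against 351 and 489 against 391.

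**Figure D5:**
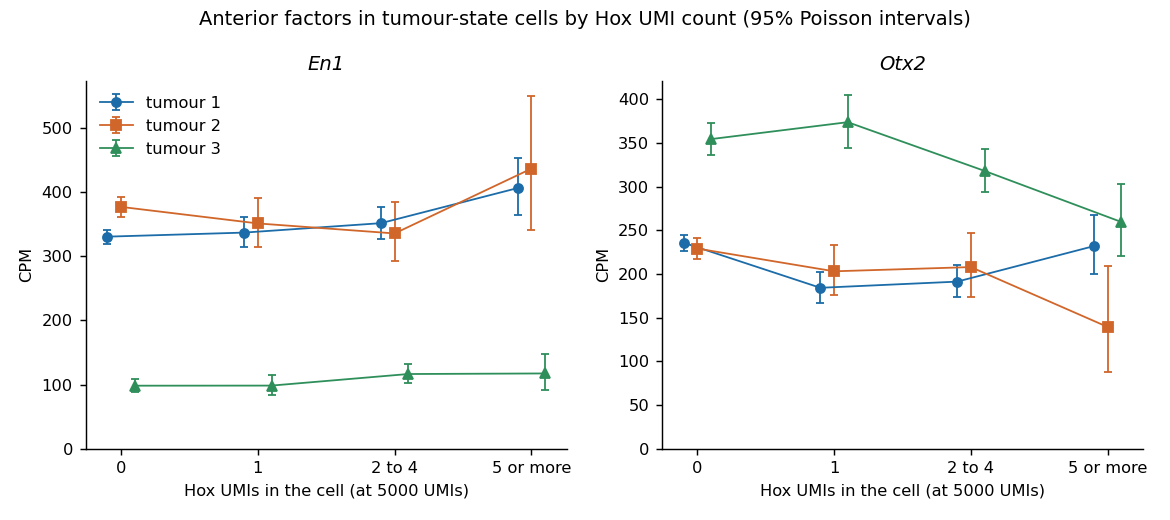
Level of En1 and Otx2 (vertical axes, CPM) in tumour-state cells with 0, 1, 2 to 4 or 5 or more Hox UMIs at 5000 UMIs (horizontal axes), 1 line for each tumour with 95% Poisson intervals. En1 stays between 330 and 436 in tumours 1 and 2 and between 98.3 and 117 in tumour 3, and Otx2 ends lower at 5 or more than at 0 in tumours 2 and 3.

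Genes that work with or upstream of Hox genes were counted from fixed lists. All 9 cofactors of the Meis, Pbx and Pknox families, which bind DNA together with Hox proteins, had UMIs in every tumour, and 6 were lower and 3 higher in immune-like cells (edgeR), where 32.0% of all genes were lower and 30.2% higher. Meis1 stood at 43.5, 58.1 and 23.4 CPM in the tumour states and Meis2 at 176, 166 and 23.8, so both were lowest in tumour 3, where the Hox sum was highest. None of the 9 differed between mesenchymal-like and neural progenitor-like cells (0 at an unadjusted p under 0.05 by edgeR).

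Of the caudal and neighbouring homeobox genes, 3 of 8 were tested and all 3 were lower in immune-like cells, where 32.0% of all genes were. Like the Hox members, genes that are low in immune-like cells pass the filter on low counts through the tumour states, so this count is a description. Cdx2, a caudal factor that turns on trunk Hox genes in the embryo, stood at 4.04, 1.21 and 13.8 CPM in the tumour states of tumours 1, 2 and 3. It had the same order of tumours as the Hox sum. Cdx2 differed between states. It was lower than in neural progenitor-like cells by edgeR in mesenchymal-like cells (log2 difference -2.83, SE 0.43, adjusted p = 7.02e-05), in neural stem-like cells (-1.70, adjusted p = 0.00518), in neuronal-like cells (-1.43, adjusted p = 0.013) and in cycling cells (-1.24, adjusted p = 0.025), in 3 of 3 tumours each. T, a factor of the primitive streak and tail bud, stood at 4.65, 8.98 and 19.5 in the tumour states.

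Retinoic acid induces anterior Hox genes in the embryo. Of 15 retinoic acid genes tested, 7 were higher and none was lower in mesenchymal-like than in neural progenitor-like cells, where 13.0% of all genes were higher, with a median log2 difference of 1.57 against -0.01 for all genes. Aldh1a1, which makes retinoic acid, was at 8.54, 13.9 and 26.8 CPM in mesenchymal-like cells of tumours 1, 2 and 3, with a log2 difference of 4.51 (SE 0.68, edgeR adjusted p = 3.66e-05). Crabp2, a retinoic acid carrier, stood at 15.8, 11.2 and 112 in the tumour states, and was again highest in tumour 3. Crabp2 and Aldh1a2 of this list were also markers of the fibroblast gate, which took cells out of the tumour states. Fibroblast markers were higher in mesenchymal-like cells too, as given above, and their part in the retinoic acid count was not tested.

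The chromatin regulators of Hox genes were present in all tumours. All 22 Polycomb genes and all 12 Trithorax genes of the lists had UMIs in every tumour, with mean levels of 1.47 to 290 and of 17.3 to 747 CPM over the genes. Of the 22 Polycomb genes 4 were called between mesenchymal-like and neural progenitor-like cells, 1 higher and 3 lower, and of the 12 Trithorax genes 1, lower, where 13.0% of all genes were higher and 6.36% lower. In immune-like cells 13 Polycomb genes were lower and 4 higher, and 6 Trithorax genes were lower and 2 higher, where 32.0% of all genes were lower and 30.2% higher. The Trithorax-associated reader Psip1 was lower in immune-like cells (log2 difference -2.26, SE 0.19, edgeR adjusted p = 1.03e-10) and the H3K27 demethylase Kdm6b was higher there (2.26, SE 0.10, edgeR adjusted p = 6.66e-16), both in 3 of 3 tumours.

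Non-coding genes of the clusters were low. Of the 16 listed, 7 were in the gene table, 5 had UMIs in every tumour and 3 were tested, and all 3 were lower in immune-like cells (32.0% of all genes), with the same limit from the filter. Hoxd3os1 stood at 5.31, 6.10 and 2.92 CPM in the tumour states, lowest in tumour 3 as were the main HoxD genes. Hoxb3os, opposite Hoxb3 and Hoxb2, stood at 3.401, 2.17 and 3.33, and Hotairm1 at 2.15, 4.64 and 0.974.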

How the data were processed

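Single-cell suspensions of 3 tumours were run on a 10x 3′ assay. The authors' gene-by-barcode matrices were made with Cell Ranger 3.1.0 on mm10, and the deposited values are UMI counts, not normalized. Total counts were 79529921, 40151353 and 67645602 for tumours 1, 2 and 3. This precision is limited by counting, and PCR duplicates are already collapsed.

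The lowest deposited barcode held 500 UMIs in each tumour. Barcodes under the 5th percentile of genes (floor of 200) or over a mitochondrial limit (3 scaled median absolute deviations above the median, at most 20%) were removed (scanpy 1.11.5). The doublet rate was set at 0.8% for each 1000 cells, which gave 7.634%, 6.048% and 4.005% of 9543, 7560 and 5006 cells. Cells with a Scrublet score above the quantile of that rate were removed as doublets (692, 449 and 152 cells). Scores equal to the quantile were kept, so fewer cells were removed than the rate gives. Cells were gated on marker lists with no Hox gene, and the gate thresholds were set after the marker distributions were seen. A non-tumour class needed 4 markers and 0.2% of UMIs in its markers, and a tumour state 3 markers, 1000 UMIs, a z score of 0.5 and a lead of 0.25. Cells near those limits are a range and not a type, with 1229, 896 and 697 cells within 0.25 of the score limit. Cells matching 2 non-tumour classes were left out.

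Counts summed over at least 20 cells of a class and tumour were tested with edgeR 4.0.16 (R 4.3.3, TMM, filterByExpr, quasi-likelihood F test, tumour as a block), with Benjamini-Hochberg adjustment over all genes tested. The script was tested on simulated data. Alternatives were DESeq2 1.42.0, other size factors, no filter, no tumour block, other gates and leaving out each tumour. Intervals are 95% exact Poisson or Clopper-Pearson, and a count of 0 allows up to 3 counts of the total. The labels name 3 mice in 1 group.

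The text names the 15 members with the most UMIs, those called in a comparison, and up to 4 called genes from each list. The gene family and the lists were chosen with earlier results of these data known, and the rule then took every member by symbol. Single results for 1 member are not reported here, although it is part of the sums and counts.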

Additional observations from a re-analysis of the deposited data

Results flagged for a closer look

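Hox UMIs were also seen in cells that the comparisons did not use, above the level in immune-like cells of the same tumour (14.4, 12.6 and 53.5 CPM). Cells that met no gate stood at 138, 61.6 and 263 CPM in tumours 1, 2 and 3. They were 3191, 3085 and 2477 cells, or 36.1%, 43.4% and 51.0% of those kept. Their Smarcb1 level was 0.950, 2.32 and 0.753 CPM, against 18.5 to 28.0 in immune-like cells. Cells that passed the astrocyte gate stood at 186 in tumour 1 (111 cells) and 202 in tumour 2 (137 cells), mostly from HoxB, which gave 125 and 193. In these cells Smarcb1 was at 0 CPM in tumour 1 and at 13.4 in tumour 2, En1 at 222 and 57.2 and Otx2 at 183 and 170. The gate alone does not separate astrocytes from tumour cells with astrocyte genes. Hoxb4 alone gave 66.8 in those cells of tumour 2, from 35 UMIs in 9 cells.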

How the results depend on the processing

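Every comparison of classes was paired within the tumours by the tumour block, and the fit without the block is an alternative. Over the alternatives, the call of Hox genes lower in immune-like cells ranged from 11 to 18 (16 as reported). Endothelial-like calls (21) were 13 with DESeq2, 12 without the tumour block, 13 with classes from clusters and 12 to 15 when 1 tumour was left out. Mural-like calls (7) were 4 with DESeq2, 3 without the block, 0 with at least 50 cells a sum, and 1 to 5 with 1 tumour left out. The neuronal-like call (1) was 0 with relative log expression size factors, DESeq2, no block, 50 cells a sum, stricter gates, cells of at least 2000 UMIs and classes from clusters, and 0 to 1 with 1 tumour left out. Mesenchymal-like calls (7) were 4 with DESeq2, 0 without the block, 0 with classes from clusters and 0 to 4 with 1 tumour left out, and cycling calls (0) were 0 to 1. For cells with a HoxB UMI, calls in other clusters (0) were 2 with DESeq2, 3 with no filter and 0 to 2 with 1 tumour left out, and for HoxD 1 with DESeq2. Without thinning, the share of cells with a Hox UMI was 44.0% in the tumour states and 9.54% in immune-like cells. Of 658 values for 52 single-gene results, 503 kept their call, 155 lost it and 0 reversed. The causes were not tested. Depth limits low members, which 1 to 3 UMIs in a class cannot rank.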
